A study of Mus musculus with 12 samples.

Results

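The genes of voltage-gated sodium and calcium channels were followed in primary cells of the mouse cerebral cortex, grown with and without triiodothyronine (T3), the active thyroid hormone. Members were taken by gene symbol, as every Scn gene that ends in a or b and every gene that begins with Cacna, Cacnb or Cacng. The annotation names 40 such genes, and 31 of them were among the 14801 genes of the deposited table. The other 9 (Scn4a, Scn10a, Scn4b, Cacna1f, Cacna2d4, Cacng1, Cacng6, Cacng7 and Cacng8) were not analysed here. Of the 31 genes, 17 encode pore-forming subunits and 14 encode auxiliary subunits.

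The libraries came from 6 fetuses titled wild type, taken on gestational day 17.5, and the labels give neither strain nor sex, nor which fetuses shared a dam. Each fetus gave 2 cultures, so the 6 libraries without T3 and the 6 with 10 nM T3 for 24 h are pairs of the same mouse. All cultures, those without T3 included, had grown for 9 days and then spent 24 h without the B27 supplement before the hormone was added to the treated ones. Such cultures hold neurons and glia together. In RNA from a mixture, fewer cells of a type and less RNA per cell cannot be told apart.

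A voltage-gated channel is built around 1 large pore-forming subunit that senses voltage and conducts the ion. Sodium pores (Nav) start and carry the action potential, with beta subunits that adjust gating and anchor the channel. Calcium pores (Cav) turn depolarization into calcium entry, and alpha2delta and beta subunits bring them to the membrane and set their gating. L-type pores signal to the nucleus, P/Q-, N- and R-type pores serve transmitter release and dendritic excitability, and T-type pores open near rest. The Cacng family includes TARPs, proteins that carry AMPA-type glutamate receptors to the synapse and bear the calcium channel name by descent. In cortical neurons, maturation is known to bring a shift from Nav1.3 (Scn3a) to Nav1.1 (Scn1a) and Nav1.6 (Scn8a), and from N-type to P/Q-type calcium channels at many synapses.

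The genes of the deposited table held 5272092 to 10837895 reads per library, and reads outside these genes are not counted here. Values are given in TMM-normalized CPM, which scales the reads of each gene by library size and composition. The T3 group was the deeper one, with 9273960 ± 1421889 reads against 7008618 ± 951368 (SD, n = 6 each). All 10 pan-neuronal markers were listed, and their summed level ran from 7286 to 9352 without T3 and from 6886 to 8323 with T3. Transcripts of heart muscle were high in 1 library, that of mouse 4 without T3, where the 4 listed markers of that kind summed to 1295 against at most 80.6 elsewhere. The other 6 of the 10 heart markers (Tnnt2, Tnni3, Actc1, Myl2, Myl7 and Nppa) were not analysed here. Without mouse 4 the same 6 channel genes passed as with all mice.

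Among the channel genes, 4 rose with T3 and 2 fell, by 1.16- to 1.33-fold. The P/Q-type pore gene Cacna1a rose, and so did 3 genes of auxiliary subunits, Cacng2, Cacng5 and Cacna2d2. The R-type pore gene Cacna1e fell, as did Scn3a, the sodium pore gene of the immature brain. The most abundant gene of each class (Scn2a, Scn3b, Cacna1b, Cacna2d1, Cacnb3 and Cacng4) did not pass the test. Of the 31 listed genes, 28 had enough reads to be tested by limma, in a fit over 13663 genes with the mouse as a block and Benjamini-Hochberg adjustment at 0.05. In that fit 5.52% of all genes passed (3.37% higher and 2.14% lower), against 6 of 28 members, or 21.4%.

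**Figure D1:**
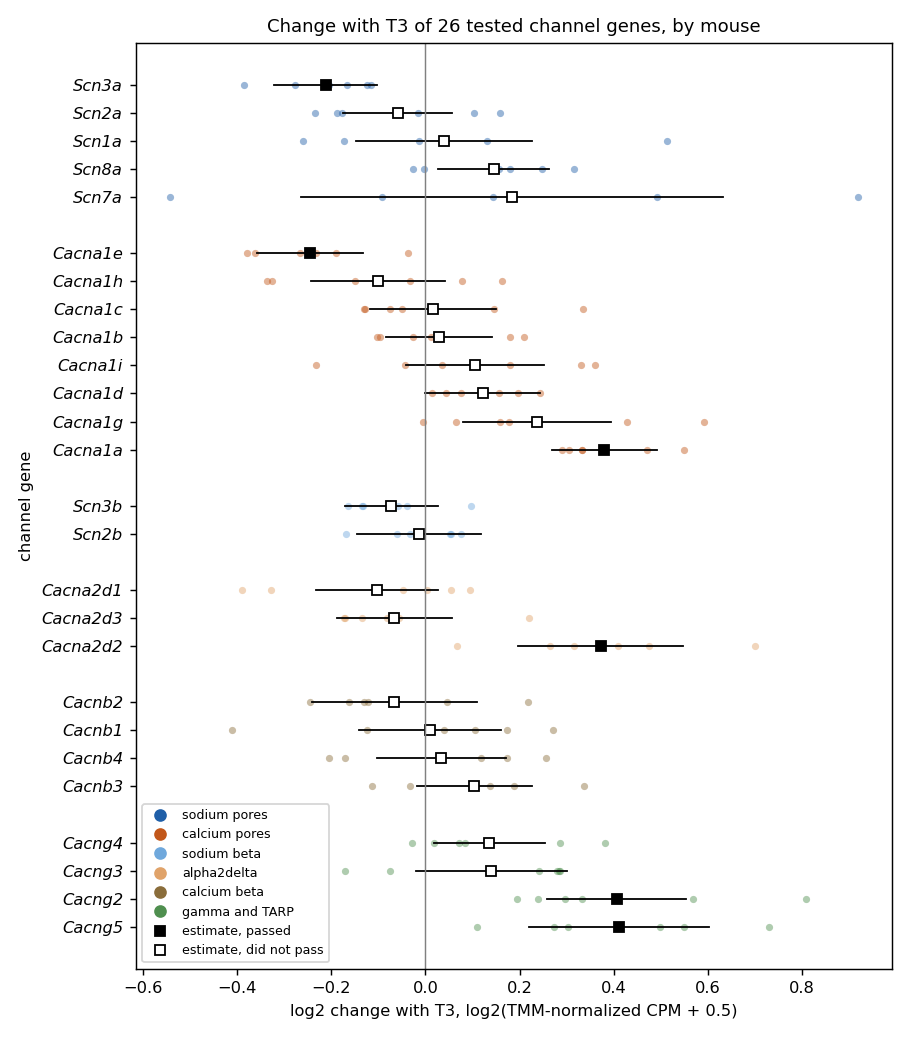
Log2 change with T3 (x axis, on the log2(TMM-normalized CPM + 0.5) scale) of 26 of the 28 tested channel genes (y axis), grouped by class. Coloured points are the 6 mice, squares the limma estimates with 95% intervals, and filled squares the 6 genes that passed: Scn3a and Cacna1e to the left of 0, and Cacna1a, Cacna2d2, Cacng2 and Cacng5 to the right.

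Among the sodium pores, Scn2a (Nav1.2), the main pore of immature axons, had the highest level. Scaled to the length of all annotated exons, Scn2a stood at 29.7 ± 1.85 CPM per kb without T3 (SD, n = 6), Scn3a (Nav1.3) at 11.5 ± 0.837, Scn8a (Nav1.6) at 6.19 ± 0.365 and Scn1a (Nav1.1) at 2.11 ± 0.212. Each step in this order was larger than the SDs of its neighbours. Scn2a thus took 59.0% ± 1.4 of the summed level per kb of the 8 listed sodium pores without T3 and 59.1% ± 1.00 with T3 (SD, n = 6 each). Scn9a and Scn11a are known mainly from sensory neurons, and Scn7a as a sodium sensor. Their levels were all under 0.4 CPM per kb in both groups.

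Scn3a was the sodium pore that changed. Its lowest, median and highest values were 125.3, 146.1 and 153.4 CPM without T3 and 115.4, 119.4 and 137.9 CPM with T3. The ranges overlapped, but the T3 culture was the lower one in each mouse, with log2 changes of -0.39 to -0.12. The fitted log2 change was -0.21 (SE 0.052, 95% interval -0.32 to -0.10, adjusted p = 0.0170 by limma), a 1.16-fold decrease. The call was lost without mouse 3 (adjusted p = 0.0902) or mouse 5 (adjusted p = 0.0789). Scn3a (ENSMUSG00000057182) lies on chromosome 2 from 65457118 to 65567627 of GRCm38.

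Its neighbours on chromosome 2 are sodium pore genes as well. Scn2a lies from 65620771 to 65767447, Scn1a from 66270778 to 66440840, Scn9a from 66480080 to 66634962 and Scn7a from 66673425 to 66784914. Scn2a values ran from 344.4 to 404.3 CPM without T3 (median 385.1) and from 343.4 to 405.8 CPM with T3 (median 351.7). The 2 ranges were nearly the same, and the log2 change of Scn2a was -0.06 (95% interval -0.17 to 0.06, adjusted p = 0.656). Scn1a changed by 0.04 (95% interval -0.15 to 0.23, adjusted p = 0.877) and Scn7a by 0.18 with 2 to 27 reads per library (adjusted p = 0.735). Scn9a, with 1 to 17 reads per library, had too few reads to be tested, as had Scn11a on chromosome 9, with 2 to 14.

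Scn8a, the pore that takes over at mature nodes and axon initial segments, ran from 88.5 to 105.2 CPM without T3 (median 97.3) and from 93.8 to 119.2 CPM with T3 (median 109.2). Its log2 change of 0.14 (95% interval 0.03 to 0.26), with 4 of 6 mice higher, did not pass after adjustment (adjusted p = 0.167). The ratio of Scn8a to Scn2a per kb was 0.209 ± 0.0172 without T3 and 0.240 ± 0.0171 with T3, and that of Scn1a to Scn3a 0.184 ± 0.0244 and 0.220 ± 0.0294 (SD, n = 6). Both ratios were higher with T3 in 5 of 6 mice. An exact sign-flip permutation test over the 6 mice gave a two-sided p of 0.0625 for each, and also for Scn2a against Scn3a, which moved apart by 0.15 on the log2 scale. In all, 7 pairs of members were compared in this way, chosen with their values known, and the smallest p that 6 mice allow is 0.03125. Adjusted over the 7 pairs (Benjamini-Hochberg), every pair stood at 0.0625, and none passed 0.05. With 6 mice a single pair could not pass after this adjustment, however large its shift. No conclusion about single pairs is drawn from it.

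The sodium beta subunits Scn3b and Scn2b, which are small cell-adhesion proteins, did not pass. Scn3b was the highest gene of its class at 74.1 ± 5.76 CPM per kb without T3, and Scn2b stood at 8.39 ± 1.14 (SD, n = 6). Scn3b ran from 348.6 to 432.0 CPM without T3 and from 372.8 to 420.5 CPM with T3, with a log2 change of -0.07 (95% interval -0.17 to 0.03). Scn2b changed by -0.01 (95% interval -0.14 to 0.12).

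**Figure D2:**
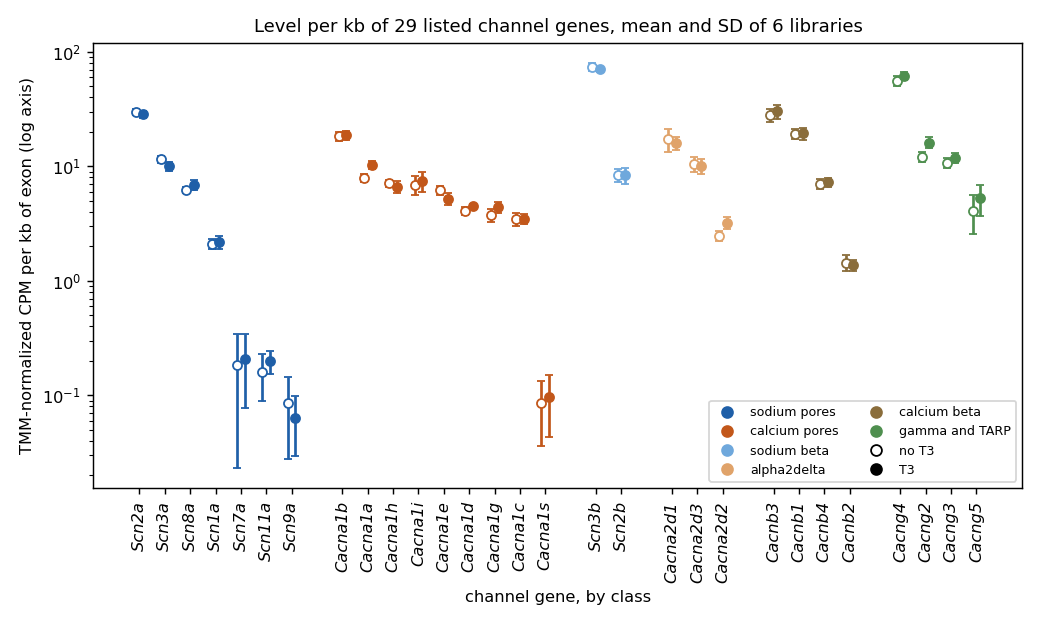
Level per kb of annotated exon (y axis, log scale, in TMM-normalized CPM per kb) of 29 of the 31 listed channel genes (x axis), grouped by class. Open points are the means of the 6 libraries without T3 and filled points those with T3, with SD bars. Scn3b and Cacng4 stand highest, and 4 pores (Scn7a, Scn9a, Scn11a and Cacna1s) lie under 0.4 CPM per kb.

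Among the calcium pores the N-type gene Cacna1b (Cav2.2) led, at 18.3 ± 1.53 CPM per kb without T3 (SD, n = 6). Cacna1a (7.92 ± 0.614), the T-type genes Cacna1h (7.11 ± 0.534) and Cacna1i (6.87 ± 1.31) and Cacna1e (6.16 ± 0.535) followed, with SDs that overlapped between neighbours. The L-type genes Cacna1d (4.11 ± 0.338) and Cacna1c (3.46 ± 0.480) and the T-type gene Cacna1g (3.75 ± 0.502) were lower and also overlapped. Cacna1s, the pore of skeletal muscle, had 2 to 12 reads per library and was not tested.

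Cacna1a, which encodes the P/Q-type pore Cav2.1 of fast transmitter release, had the smallest p of all members. Its lowest, median and highest values were 82.7, 87.7 and 100.9 CPM without T3 and 104.2, 119.8 and 128.9 CPM with T3. Every T3 library was above every library without T3, a separation seen in 2 of 28 tested members (Cacna1a and Cacna2d2) and in 1.68% of all genes tested. The log2 change was 0.38 (SE 0.054, 95% interval 0.27 to 0.49, adjusted p = 0.000106 by limma), a 1.3-fold rise. Single mice rose by 0.29 to 0.55. The call held in each of the 15 other settings, with adjusted p from 6.49e-07 to 0.00736. Cacna1a (ENSMUSG00000034656) lies on chromosome 8 from 84388440 to 84640246 of GRCm38, and an antisense gene (Gm16183) covers 3.81% of its exons.

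Cacna1e, which encodes the R-type pore Cav2.3, moved the other way. Its lowest, median and highest values were 140.5, 151.2 and 178.6 CPM without T3 and 114.2, 128.8 and 158.5 CPM with T3. The groups overlapped through mouse 2, which had 162.6 CPM without T3 and 158.5 CPM with it, and all 6 mice were lower. The log2 change was -0.25 (SE 0.054, 95% interval -0.36 to -0.13, adjusted p = 0.00759 by limma), a 1.19-fold decrease. Without mouse 3 the call was lost (log2 change -0.22, adjusted p = 0.0594). Cacna1e (ENSMUSG00000004110) lies on chromosome 1 from 154390731 to 154884501.

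The N-type gene Cacna1b ran from 165.8 to 198.2 CPM without T3 and from 154.3 to 200.3 CPM with T3. It was higher in 3 mice and lower in 3, with a log2 change of 0.03 (95% interval -0.08 to 0.14, adjusted p = 0.846). Cacna1e had more CPM than Cacna1a in both groups (means of 155.4 against 90.4 without T3 and 131.4 against 117.8 with T3). Scaling to annotated exons (25.2 kb for Cacna1e, 11.4 kb for Cacna1a) reversed this order. The ratio of Cacna1a to Cacna1b per kb went from 0.434 ± 0.0283 to 0.554 ± 0.0370 (SD, n = 6). That of Cacna1a to Cacna1e per kb went from 1.29 ± 0.0752 to 2.00 ± 0.215 (SD, n = 6). Neither pair of ranges overlapped, and both ratios rose in 6 of 6 mice, by 0.29 to 0.40 and by 0.37 to 0.78 on the log2 scale. For each of the 2 the exact sign-flip permutation test gave p = 0.03125, the smallest possible, and 0.0625 adjusted over the 7 pairs. This outcome was fixed in advance for these 2 pairs. Cacna1a rose and Cacna1e fell in each mouse, and the smallest rise of Cacna1a (0.29) was above the largest change of Cacna1b (0.21). The 2 pairs add nothing to the results of the single genes.

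The T-type and L-type pores did not pass the test. Cacna1g (Cav3.1) ran from 29.6 to 43.7 CPM without T3 and from 38.8 to 52.6 CPM with T3, with a log2 change of 0.24 (95% interval 0.08 to 0.39, adjusted p = 0.0761). It passed without mouse 2 (adjusted p = 0.0437). Cacna1h and Cacna1i changed by -0.10 and 0.10, with intervals from -0.24 to 0.04 and from -0.04 to 0.25. Cacna1d (Cav1.3) was higher in 6 of 6 mice by a small amount, 0.12 on the log2 scale (95% interval -0.00046 to 0.24, adjusted p = 0.288), and Cacna1c (Cav1.2) changed by 0.02 (95% interval -0.12 to 0.15).

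The same direction in 6 of 6 mice was found for 7 of the 28 tested members, the 6 that passed and Cacna1d, and for 10.8% of all genes tested.

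**Figure D3:**
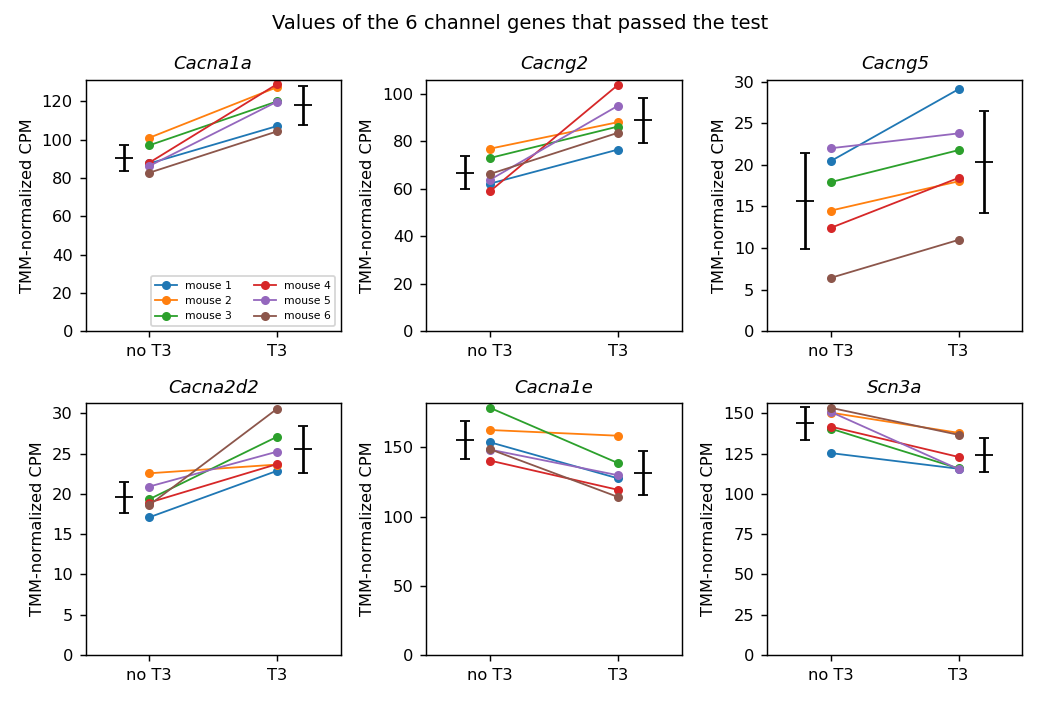
TMM-normalized CPM (y axes, each from 0) without and with T3 (x axes) for the 6 channel genes that passed. Lines join the 2 cultures of a mouse, and the black bars beside them are the mean and SD of 6 libraries. All lines rise for Cacna1a, Cacng2, Cacng5 and Cacna2d2 and all fall for Cacna1e and Scn3a, and mouse 6 has the lowest Cacng5 in both groups.

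The alpha2delta subunits, extracellular proteins that raise the number of calcium channels at the surface, changed in 1 of 3 tested genes. Cacna2d2 was the lowest of the 3, at 2.46 ± 0.240 CPM per kb without T3, against 17.4 ± 3.90 for Cacna2d1 and 10.5 ± 1.52 for Cacna2d3 (SD, n = 6). Its lowest, median and highest values were 17.1, 19.1 and 22.6 CPM without T3 and 22.9, 24.5 and 30.6 CPM with T3. All T3 libraries were above all others. The log2 change of Cacna2d2 was 0.37 (SE 0.084, 95% interval 0.20 to 0.55, adjusted p = 0.00954 by limma), a 1.29-fold rise. The call was lost without mouse 3 (adjusted p = 0.0539) or mouse 6 (adjusted p = 0.0545). Cacna2d2 (ENSMUSG00000010066) lies on chromosome 9 from 107399612 to 107529343.

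Cacna2d1 varied more between mice than T3 moved it, with 146.7 to 294.7 CPM without T3 and 156.6 to 224.8 CPM with T3 (log2 change -0.10, 95% interval -0.23 to 0.03). Cacna2d3 changed by -0.07 (95% interval -0.19 to 0.06). The ratio of Cacna2d2 to Cacna2d1 per kb was 0.147 ± 0.0288 without T3 and 0.203 ± 0.0240 with T3. It rose in 6 of 6 mice (exact sign-flip permutation test, p = 0.03125, adjusted 0.0625), by as little as 0.01 and as much as 1.09 on the log2 scale.

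The calcium beta subunits, cytoplasmic proteins that bind the pore and shield it from degradation, gave the smallest changes, with a median size of 0.0497 on the log2 scale. Cacnb3 (28 ± 3.44 CPM per kb without T3) and Cacnb1 (19.2 ± 1.79) were well above Cacnb4 (7.07 ± 0.690) and Cacnb2 (1.44 ± 0.225). Their log2 changes were 0.10, 0.01, 0.03 and -0.07, with intervals that reached no further than -0.24 and 0.23. None of the 4 passed with limma, none had an unadjusted p under 0.05, and none passed with edgeR, DESeq2 or limma-voom. An opposite-strand gene covers 16.0% of the Cacnb4 exons.

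The Cacng genes held the largest rises. Of the 8 in the annotation 4 were listed and tested, and Cacng4 was the most abundant at 55.8 ± 5.43 CPM per kb without T3. Cacng2 followed at 12.1 ± 1.24, Cacng3 at 10.7 ± 0.984 and Cacng5 at 4.07 ± 1.5 (SD, n = 6), and the SDs of Cacng2 and Cacng3 overlapped.

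Cacng2 encodes stargazin, the TARP whose loss gives the stargazer mouse. Its lowest, median and highest values were 59.0, 65.0 and 76.9 CPM without T3 and 76.5, 87.1 and 103.7 CPM with T3. The groups touched by less than 1 CPM. The log2 change was 0.41 (SE 0.071, 95% interval 0.26 to 0.55, adjusted p = 0.00109 by limma), a 1.33-fold rise in 6 of 6 mice. Mouse 4 rose most, by 0.81, and without it the change was 0.33 (adjusted p = 0.00664). Cacng2 (ENSMUSG00000019146) lies on chromosome 15 from 77991748 to 78120028. An antisense gene, A730060N03Rik, covers 5.86% of its exons and was at 1.42 ± 0.324 CPM without T3 and 2.13 ± 0.399 with T3 (SD, n = 6), and reads of the 2 strands cannot be told apart.

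Cacng5, a TARP of the second type that is found in glia as well as in neurons, had lowest, median and highest values of 6.42, 16.2 and 22.0 CPM without T3 and 11, 20.1 and 29.1 CPM with T3. The ranges overlapped widely because the mice differed, but each mouse rose, by 0.11 to 0.73. The log2 change was 0.41 (SE 0.092, 95% interval 0.22 to 0.60, adjusted p = 0.00855 by limma), a 1.33-fold rise. With DESeq2 the call was just lost (adjusted p = 0.0577). Cacng5 (ENSMUSG00000040373) lies on chromosome 11 from 107874605 to 107915055, beside Cacng4, which lies from 107732357 to 107794557.

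Markers of glia moved in the same mice. The 10 astrocyte markers summed to 874 to 2926 CPM without T3 and to 1329 to 3460 CPM with T3, and the sum was higher with T3 in 6 of 6 mice. Of 9 tested astrocyte markers 6 rose. Mouse 6 had the lowest astrocyte sum in both groups (874 and 1329 CPM) and the lowest Cacng5. Mouse 1 had the highest astrocyte sum with T3 (3460 CPM) and the highest Cacng5 there, while without T3 the highest astrocyte sum was that of mouse 1 (2926 CPM) and the highest Cacng5 that of mouse 5. The 7 markers of oligodendrocyte precursors summed to 408 to 508 CPM without T3 and 469 to 561 CPM with T3, again higher in 6 of 6 mice, with 3 higher and 1 lower among 7 tested. The part of these cells in the rises of Cacng5, Cacng2, Cacna2d2 and Cacna1a was not tested.

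The pan-neuronal sum was lower with T3 in 5 of 6 mice, with 3 of 10 markers higher. The 8 excitatory markers summed to 1421 to 1659 CPM without T3 and 1269 to 1559 CPM with T3, with 3 of 8 lower. Their sum was higher with T3 in 1 of 6 mice. The 9 inhibitory ones summed to 854 to 954 and 738 to 1072 CPM, with 2 higher and 1 lower. That sum was higher with T3 in 2 of 6 mice. The part of neurons in the falls of Scn3a and Cacna1e was not tested. One of 6 tested markers of mature oligodendrocytes rose (sums of 81.0 to 113.3 and 84.5 to 115.4 CPM). Progenitor markers summed to 777 to 1383 and 930 to 1481 CPM, microglial markers to 3.08 to 10.2 and 4.28 to 8.70 CPM, and endothelial markers to 5.86 to 32.1 and 6.39 to 30.7 CPM. Fibroblast and mural markers, of which 1 of 7 tested fell, reached 439.6 CPM in the library of mouse 4 without T3 and at most 165.0 CPM elsewhere.

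Cacng4, which is also expressed outside neurons, had a log2 change of 0.14, with 5 of 6 mice higher (95% interval 0.02 to 0.25, adjusted p = 0.199). Cacng3 changed by 0.14 as well (95% interval -0.02 to 0.30). All 4 tested Cacng genes had a log2 change above 0, as had 51.1% of all genes. Cacng2 rose more than Cacng3 in 5 of 6 mice, by 0.27 on average (exact sign-flip permutation test, p = 0.0625, adjusted 0.0625).

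Promoter windows were looked up because the T3 receptor binds the half-site AGGTCA and direct repeats of it with 4 bases between the copies. RefSeq windows on GRCm38.p6 were found for 23 of the 31 listed genes, 34 windows of 300 bases in all, and Cacna1a and Scn3a had none. Cacng5 was the only gene that passed with a window that begins at the annotated start of its gene and covers no annotated exon. Its 250 bases before the start are shown 5′ to 3′ along the gene, for the gene with the largest fitted rise of all channel genes.
Cacng5 (chr11:107915056-107915305, minus strand, GRCm38.p6): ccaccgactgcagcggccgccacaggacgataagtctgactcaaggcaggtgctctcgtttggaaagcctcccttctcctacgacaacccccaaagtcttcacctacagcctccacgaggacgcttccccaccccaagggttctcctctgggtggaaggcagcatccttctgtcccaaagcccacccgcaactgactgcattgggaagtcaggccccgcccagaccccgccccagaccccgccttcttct

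This stretch, with 62.0% G and C, held no AGGTCA on either strand, so no letter is in capitals. In the windows of 300 bases AGGTCA was found, on either strand, in 2 of 34 of the channel genes (5.88%) and in 16.3% of all 32851. The 2 belong to Scn1a and to a start of Scn8a inside the gene, and neither gene passed the test. The direct repeat, which contains the half-site, was in none of the 34 and in 0.0152% of all windows. Only exact copies inside these windows were searched. Sites with other letters, in other arrangements or farther from a start were not looked for. Whether the receptor acts on these genes was not tested.

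Pore-forming and auxiliary subunits were set side by side, 14 tested genes of each. Among the pores 1 rose (Cacna1a) and 2 fell (Cacna1e and Scn3a), and among the auxiliary genes 3 rose (Cacng2, Cacng5 and Cacna2d2). No auxiliary gene fell by limma, by edgeR, by DESeq2 or by limma-voom, and none had a log2 change below 0 with an unadjusted p under 0.05. In each set 9 of 14 genes had a log2 change above 0. The median log2 change was 0.034 for the pores and 0.068 for the auxiliary genes, beside 0.0031 over all 13663 genes tested. These medians are small against the largest single changes of either set. By class, the auxiliary medians were 0.273 (Cacng), 0.021 (calcium beta), -0.013 (sodium beta) and -0.067 (alpha2delta). Only that of Cacng, the family that includes the AMPA receptor TARPs, was above the median of the pores. Cacng also held 2 of the 3 auxiliary genes that rose. The higher auxiliary median is therefore not a trait of the alpha2delta and beta subunits.

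By mouse, the median of the auxiliary genes ran from 0.051 to 0.204 and was above 0 in 6 of 6 mice, and that of the pores ran from -0.065 to 0.168 and was above 0 in 3. The auxiliary median was the higher one in 5 of 6 mice, by at most 0.127, and in mouse 2 the pores were higher by 0.0099. Left out 1 at a time, the mice gave 0.021 (without mouse 2) to 0.053 (without mouse 1) for the pores and 0.046 (without mouse 4) to 0.120 (without mouse 1) for the auxiliary genes. Among the auxiliary classes, only Cacng had a median above 0 in 6 of 6 mice. The difference between pores and auxiliary genes was not tested.

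**Figure D4:**
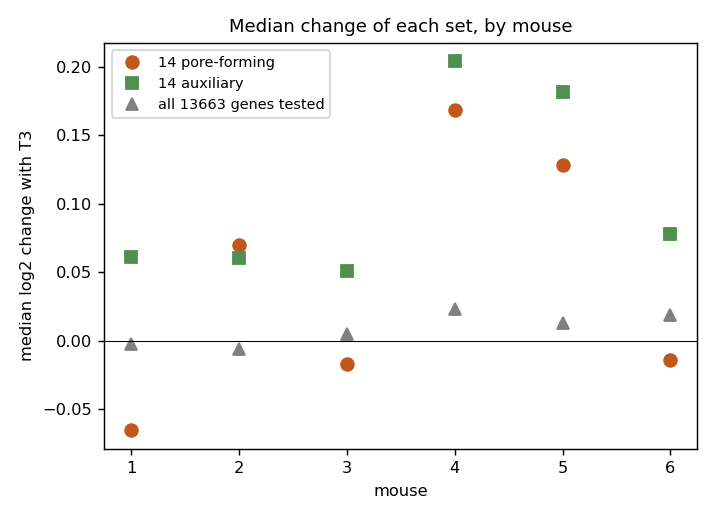
Median log2 change with T3 (y axis) in each of the 6 mice (x axis) over the 14 tested pore-forming genes (circles), the 14 tested auxiliary genes (squares) and all 13663 genes tested (triangles). The squares are above 0 in all 6 mice, and the circles in 3.

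A list of 52 genes held those of proteins that bind, anchor or traffic these channels. It also held genes of AMPA receptors and their partners (Gria1, Gria2, Gria3, Gria4, Cnih2 and Cnih3). From this list 48 genes were tested. Of these 2 rose and 4 fell, or 12.5% against 5.52% of all genes, with a median log2 change of -0.03 against 0.0031. Stac2, an adaptor that binds L-type calcium channels, rose from 10.9 ± 1.84 to 23.3 ± 4.88 CPM (SD, n = 6), with 8.23 to 12.9 CPM without T3 and 15.8 to 28.9 CPM with T3. The 2 ranges did not overlap, and the log2 change of 1.05 (adjusted p = 2.45e-06) exceeded that of any channel subunit. Stac, another adaptor of that family, fell by 0.51 on the log2 scale (adjusted p = 0.0379), with 20 to 57 reads per library. The Stac call was lost without mouse 1, 2, 3, 4 or 6 and with DESeq2.

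Nfasc, the neurofascin gene whose product gathers sodium channels at nodes and initial segments, rose from 115.4 to 157.3 CPM across the libraries without T3 to 159.3 to 174.4 CPM with T3. The ranges did not overlap (log2 change 0.23, adjusted p = 0.0134), but the call was lost without mouse 4 or 5. Dpysl2 (CRMP2), which binds N-type channels, fell by 0.21 (adjusted p = 0.00647). Akap5, a kinase anchor at L-type channels and AMPA receptors, fell by 0.28 (adjusted p = 0.0231) and lost its call without mouse 3 or 5 and with DESeq2. Gria1, which encodes an AMPA receptor subunit, fell by 0.18 (adjusted p = 0.0192) and lost its call without mouse 2 or 3. Its values were 529.7 to 590.4 CPM without T3 and 449.2 to 567.4 CPM with T3. The AMPA receptor genes Gria2, Gria3 and Gria4 did not pass, with log2 changes of -0.14, 0.07 and -0.05. All 4 partner genes that passed with a fall were lower in 6 of 6 mice.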

How the data were processed

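RNA sequencing libraries of 12 cultures (6 mice, each with and without T3) were read as single reads of 75 bases on total RNA. The authors deposited a normalized signal, gene counts scaled by TMM as the name of the deposited table says, with library sums of 969044 to 1044783. HTSeq, TopHat and Bowtie, besides CASAVA, FastQC and edgeR, and the build GRCm38 stand in the submitters' processing notes. Their versions and the strand setting were "not given in the sources used here". Strand is not marked by the kit. The listed genes have 1 CPM or more in at least 2 libraries.

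All values were whole multiples of 1 read (100% within 0.01 reads), worth 0.0911 to 0.186 CPM, which gave back the reads. The limit that 3 reads set was 0.273 to 0.557 CPM and covers counting error only. Symbols came from GENCODE M21 (14648 of 14801 identifiers), and levels per kb use all annotated exons, which understates genes with rarely used exons.

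The test was limma 3.58.1 (R 4.3.3) on log2(value + 0.5) with trend, robust estimation and the mouse as block, which understates changes of low genes. Low genes were removed by filterByExpr (edgeR 4.0.16), applied to those reads. The design text says that both cultures of a number came from 1 fetus. Deviations from the group means correlated at 0.237 to 0.638 within pairs. The best correlation of a mouse with another mouse across the groups was 0.136 to 0.348. It was below that of the own pair in each mouse, but only narrowly in mouse 5 (0.348 against 0.397). Replicates differed beyond sampling noise (chi-square per degree of freedom 2.51 to 19.3). Alternatives were other pseudocounts, filters, RLE scaling, edgeR, DESeq2 1.42.0 and limma-voom on the recovered reads, no block, and each mouse left out. The test was tried on simulated data drawn without differences between mice, so that trial cannot show how the block performs. Members, gene lists and pairs were chosen with earlier results of these data known. Of the listed members, 2 enter all counts and medians but are not reported here singly. Every other member could be named. Partner genes were named when they passed, and Gria2, Gria3 and Gria4 were named beside Gria1. The promoter window to print was chosen after values were seen.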

Additional observations from a re-analysis of the deposited data

Results flagged for a closer look

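In 7 of 86 sets of 6 values, 1 value lay far from the other 5 by Dixon's 95% criterion, which sets the gap against the range, and chance flags about 1 in 20 such sets. Without T3, Cacna1d stood at 59.9 CPM in mouse 2 (47.5 to 51.9 in the others) and Scn7a at 3.63 CPM in mouse 1 (0.282 to 1.32). With T3, Cacna1b stood at 154.3 CPM in mouse 1 (185.2 to 200.3 in the others) and Scn3b at 420.5 CPM in mouse 2 (372.8 to 384.0). Also with T3, mouse 6 had the lowest Cacna2d3 at 62.9 CPM (87.5 to 99.4) and the lowest Cacnb2 at 14.1 CPM (18.1 to 19.9). The log2 change of Cacna2d3 was 0.22 in mouse 4 and -0.17 to -0.06 in the other 5.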

How the results depend on the processing

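All 6 channel genes passed with either other pseudocount, either other filter, RLE scaling, edgeR and limma-voom, and 5 with DESeq2, which lost Cacng5. Of all genes, 775 passed with edgeR, 522 with DESeq2 and 788 with limma-voom on the recovered reads. Without the replicate block, which discards the pairing by fetus, 178 genes of all passed in place of 754, 3 channel genes (Cacna1a, Cacna2d2 and Cacng2) in place of 6 and 1 partner gene in place of 6. Leaving out 1 mouse gave 459 to 859 genes, 3 to 8 channel genes and 3 to 7 partner genes. The lowest counts came without mouse 3, when Cacna1a, Cacng2 and Cacng5 passed. Without mouse 2, Cacna1g passed as well. No result reversed its sign among those that passed. Leaving out a mouse also lowers the number of mice, and the cause of the lost calls was not tested. Cacna1a, Cacng2 and Stac2 passed in each of the 15 settings. Depth limits Scn9a, Scn11a and Cacna1s, which had at most 17 reads per library.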
